A study of Mus musculus with 30 samples.

Results

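Hox genes were described here as a family: all 39 protein-coding mouse genes whose symbol is Hoxa, Hoxb, Hoxc or Hoxd followed by a number, out of 30205 genes quantified in 30 RNA-seq libraries of cultured muscle cells. The members were taken by name alone, with no measured value. Every one of the 39 annotated genes was found in the tables. They lie in 4 clusters in the GRCm38 (mm10) genome, with 11 Hoxa genes on the minus strand at chr6:52155590-52260880, 10 Hoxb genes on the plus strand at chr11:96194316-96368256, 9 Hoxc genes on the plus strand at chr15:102921103-103036852 and 9 Hoxd genes on the plus strand at chr2:74668310-74765142.

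The study grew myotubes on micropatterned gelatin hydrogels to ask whether the grooved surface advances their maturation. C2C12, an immortal myoblast line derived from the thigh muscle of an adult mouse, was sampled at day 0 (D0), before serum was withdrawn. Its myotubes were sampled at day 4 (D4) and day 7 (D7) on plastic, on unpatterned gelatin and on patterned gelatin. Primary myoblasts were sampled at D0 and as myotubes on patterned gelatin at D4 and D7. The titles of the D0 libraries name no substrate. Before plating, the paper kept C2C12 on plastic and primary cells on dishes coated with extracellular matrix. Plastic at D0, as in the figure labels, is an assumption for both. For primary cells the coated dishes do not bear it out, so the D0 surface may differ between cell types. Each of the 10 groups had 3 libraries, 21 from C2C12 and 9 from primary cells. The labels give no transgene or drug for any group, and all myotubes were differentiated by serum withdrawal. C2C12 is 1 clonal line, bought from a repository and used up to passage 8, so its libraries are separate cultures of 1 clone. The paper sequenced more than 1 batch of C2C12 and reports that the single genes regulated often differed between batches. The labels of the libraries used here name no batch. Whether the single-gene calls below hold in another batch was not tested. The primary cells came from leg muscle of 3 mice, C57/Bl6J and 8 weeks old. The study's methods call this tissue hindlimb muscle and its results call it gastrocnemius, and neither the methods nor the labels say which library came from which mouse. With D0 on plastic or on a coated dish, a comparison of gelatin at D4 or D7 with D0 changes both the day and the substrate. The paper describes a brief trypsin step to enrich for myotubes at D4 and D7 and states none for D0. Any comparison with D0, on plastic too, may therefore also change the fraction of cells sampled. Library totals ran from 13.1 M to 59.4 M estimated counts (M, 1000000 counts), with a median of 27.3 M. Levels are given in TPM, a gene's share of all transcripts in a library after correction for length, scaled so that each library sums to 1000000. A gene was called changed when edgeR's quasi-likelihood test, fitted over all genes, gave a Benjamini-Hochberg adjusted p under 0.05.

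Hox genes encode homeodomain transcription factors that give cells of the embryo their address along the body axis. Within a cluster the genes are switched on in order, from the low-numbered genes that mark the hindbrain and neck to the high-numbered ones that mark the lumbar, sacral and tail regions, and the same order is used again from shoulder to fingertip in the limb bud. Genes with the same number in different clusters are paralogues and often share tasks. Polycomb complexes keep the unused genes silent and Trithorax complexes keep the used ones open, so that adult cells, including fibroblasts and muscle stem cells, can retain the pattern of the place they came from.

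The muscle identity of both cell types was checked first. The 8 myogenic markers, among them Pax7, Myod1, Myog and Ckm, were each above 3 counts in some library of every group, and their summed level ran from 1248 to 1523 TPM in C2C12 at D0, from 4854 to 6697 TPM in C2C12 at D7, from 2212 to 2830 TPM in primary cells at D0 and from 2699 to 6138 TPM in primary cells at D7. Of these 8 markers, 4 were called higher and 3 lower in primary cells than in C2C12 at D0, 1 and 4 at D4, and 0 and 5 at D7. Of all genes, 57.5%, 50.6% and 51.5% were called on these days. The 5 lower at D7 were Cdh15, Des, Myod1, Myog and Pax7. Summed fibroblast markers were higher in the C2C12 libraries (488 to 1303 TPM) than in the primary ones (9.20 to 300.2 TPM), and the fibroblast marker Lum was under 3 counts in every primary library. Col1a1, Col3a1, Dcn, Ly6a and Pdgfra were called lower in primary cells at D0, D4 and D7. Thy1 of the same list went the other way and was called higher in primary cells at D0 and D4. Endothelial, immune and Schwann cell markers summed to at most 14.1 TPM, 5.54 TPM and 2.80 TPM in any library, with Emcn, Adgre1 and Sox10 under 3 counts throughout, and the embryonic stem cell genes Pou5f1 and Nanog summed to at most 3.21 TPM. Pericyte and smooth muscle markers, which include the actin gene Acta2, summed to between 559 and 2429 TPM. The part of these other cell types in the Hox values was not tested.

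Primary replicate 3 stood apart from primary replicates 1 and 2 at D0, D4 and D7 alike, in several Hox genes and in other positional factors, and the counts of Hox genes called in primary cells are therefore given with and without it. The shares of Hox TPM, fold bounds, single-gene values and counts over other gene lists include it unless stated. Replicate numbers paired the primary libraries across days, as described under the processing, so primary changes are also given with the replicate number as a block.

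The Hoxa and Hoxc clusters were transcribed in C2C12 and primary cells, the Hoxb cluster was close to silent in both, and the Hoxd cluster was read in primary cells mainly at Hoxd8, Hoxd9 and Hoxd4 and was near 0 in C2C12. Hoxc genes supplied 57.7% ± 2.86 (SD, n = 21) of all Hox TPM in the C2C12 libraries and 51.4% ± 7.02 (SD, n = 9) in the primary ones, and Hoxa genes supplied 41.6% ± 2.84 and 42.0% ± 5.40. Hoxb genes made up 0.606% ± 0.177 and 0.317% ± 0.175. Hoxd genes made up 0.0812% ± 0.0638 of Hox TPM in C2C12 and 6.24% ± 6.15 in primary cells, with single primary libraries between 0.0613% and 17.7%. Of the 39 genes, 19 had at least 3 counts in every one of the 30 libraries, 10 of them in the Hoxa cluster and 9 in the Hoxc cluster. No Hoxb or Hoxd gene passed that limit in all libraries. Hoxb8, Hoxd1 and Hoxd12 had no count in any library, which allows a level of up to 0.00374 CPM (counts for every 1000000 in the library) over the summed libraries. These counting limits and intervals cover counting error only.

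**Figure D1:**
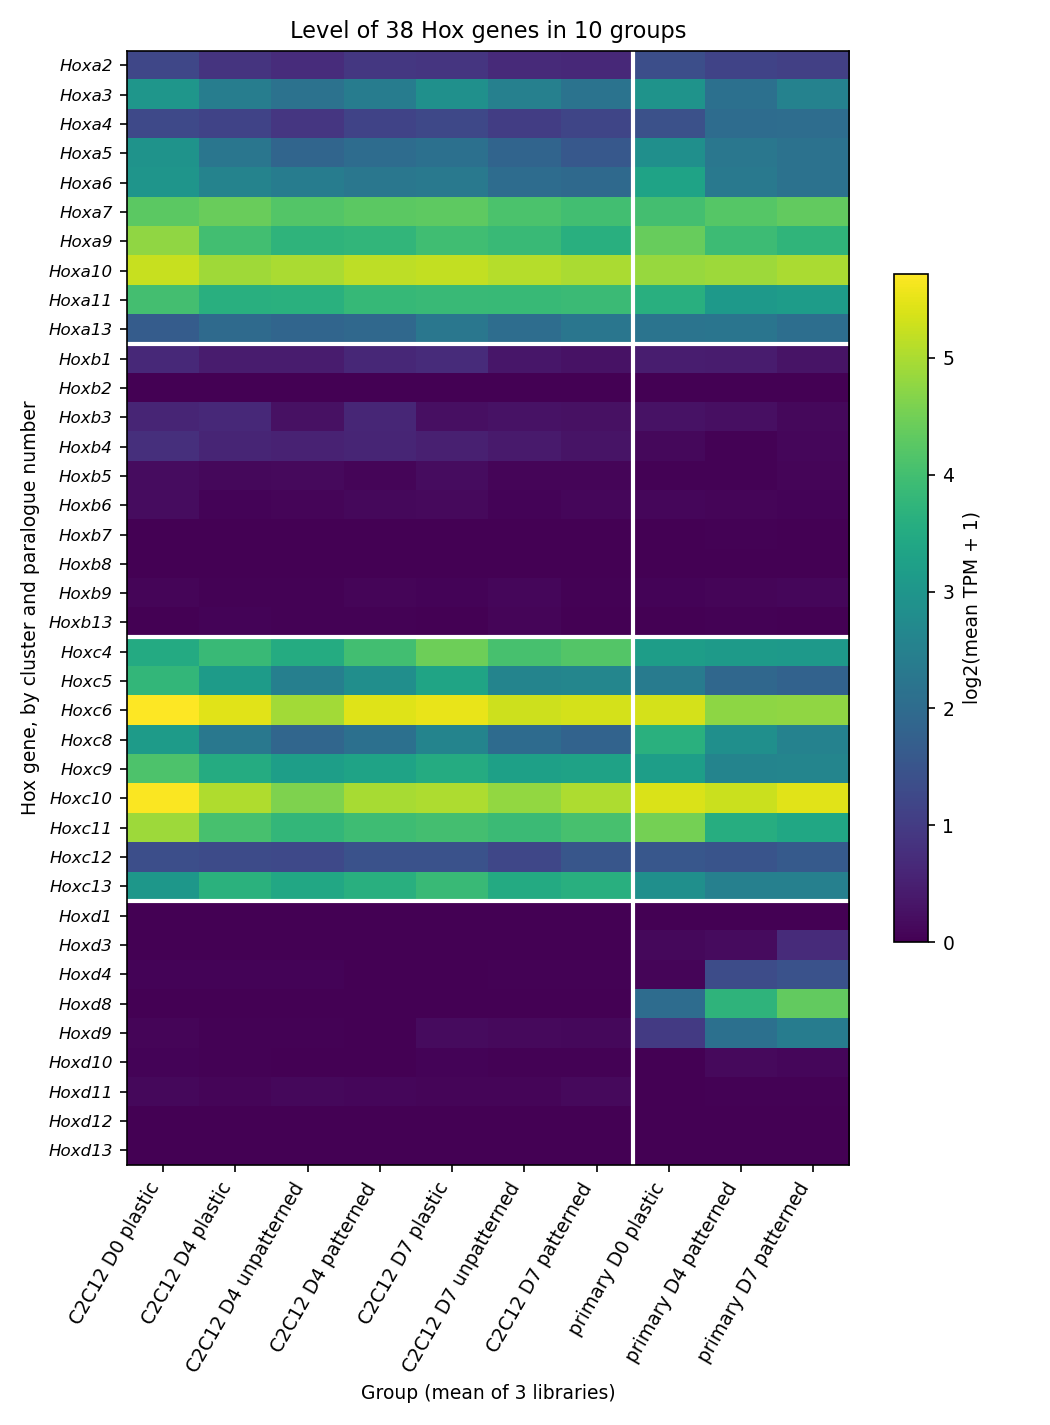
Heat map of 38 Hox genes (rows, by cluster and paralogue number) in the 10 groups (columns, each the mean of 3 libraries), coloured by log2(mean TPM + 1). The Hoxa and Hoxc rows are filled in all groups, the Hoxb rows are dark throughout, and Hoxd8 with its neighbours appears in the primary columns, where Hoxd8 averaged 3.03 TPM at D0 and 19.2 TPM at D7.

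Promoters of the genes that separate the samples are shown so that the neighbours can be compared by eye. RefSeq windows of 300 bases, running from 250 bases before to 50 bases after a start site in GRCm38.p6, were held for 22 of the 39 genes, in 24 windows. Shown are Hoxa11 and Hoxa13, which were near 0 in primary replicate 3, their neighbour Hoxa10, which was high in every library, and Hoxd8, which was measured in primary cells and not in C2C12. The motif searched was the letters CG, which read the same on both strands and are the site of DNA methylation in mammals, and its copies are in capitals.
Hoxa10, chr6:52240805-52241104, minus strand: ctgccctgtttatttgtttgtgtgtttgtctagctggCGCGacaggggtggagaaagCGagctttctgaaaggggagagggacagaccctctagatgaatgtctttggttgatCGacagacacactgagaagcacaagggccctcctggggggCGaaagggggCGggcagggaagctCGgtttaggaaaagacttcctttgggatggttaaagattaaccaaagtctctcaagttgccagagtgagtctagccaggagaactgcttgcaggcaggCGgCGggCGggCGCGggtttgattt
Hoxa11, chr6:52245761-52246060, minus strand: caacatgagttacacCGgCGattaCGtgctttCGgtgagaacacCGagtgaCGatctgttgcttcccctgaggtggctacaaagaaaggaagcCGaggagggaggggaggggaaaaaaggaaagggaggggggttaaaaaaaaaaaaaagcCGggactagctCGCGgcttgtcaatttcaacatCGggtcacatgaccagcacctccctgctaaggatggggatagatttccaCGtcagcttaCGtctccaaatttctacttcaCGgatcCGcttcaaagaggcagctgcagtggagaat
Hoxa13, chr6:52260831-52261130, minus strand: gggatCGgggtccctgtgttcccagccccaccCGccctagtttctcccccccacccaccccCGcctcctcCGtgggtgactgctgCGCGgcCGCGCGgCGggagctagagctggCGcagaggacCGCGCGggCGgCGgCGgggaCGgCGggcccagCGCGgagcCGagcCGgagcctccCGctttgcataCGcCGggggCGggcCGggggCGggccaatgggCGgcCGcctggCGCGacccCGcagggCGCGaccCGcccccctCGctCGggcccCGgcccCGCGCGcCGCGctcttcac
Hoxd8, chr2:74704365-74704664, plus strand: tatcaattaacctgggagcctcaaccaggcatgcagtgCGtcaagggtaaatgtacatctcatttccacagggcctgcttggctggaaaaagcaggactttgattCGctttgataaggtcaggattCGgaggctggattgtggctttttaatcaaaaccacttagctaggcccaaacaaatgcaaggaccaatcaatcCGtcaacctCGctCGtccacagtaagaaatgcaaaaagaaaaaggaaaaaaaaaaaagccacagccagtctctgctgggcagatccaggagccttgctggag
Hoxa13 held 45 copies of CG, Hoxa11 held 15, Hoxa10 held 12 and Hoxd8 held 6. A second RefSeq window of Hoxa10, at chr6:52234890-52235189 and not printed here, held 21. As many copies as in the Hoxa13 window were found in 1.93% of all 32851 promoter windows, and as many as in Hoxa11, the printed Hoxa10 window and Hoxd8 in 34.6%, 39.6% and 56.4%. Of the 24 Hox windows, 12 (50%) held at least 15 copies, with a median of 14.5, against 34.6% of all windows, whose median was 7.

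Along the clusters the transcript level was highest in the middle and rear genes. Paralogues 9 to 11 held 50.2% ± 3.51 (SD, n = 21) of Hox TPM in C2C12 and 51.2% ± 3.61 (SD, n = 9) in primary cells, and paralogues 4 to 8 held 39.6% ± 3.09 and 39.9% ± 3.70. The hindbrain paralogues 1 to 3 held 3.68% ± 0.446 and 4.23% ± 0.747, and the terminal paralogues 12 and 13 held 6.57% ± 1.40 and 4.68% ± 0.680. Hoxc6, Hoxc10 and Hoxa10 took the first 3 ranks in all 10 groups. The first 8 genes held between 73.4% and 78.9% of Hox TPM in each group. Hoxc6 led in 6 of the 7 C2C12 groups, Hoxa10 led in C2C12 on unpatterned gelatin at D4, and Hoxc10 led in the 3 primary groups. In the D0 C2C12 libraries, Hoxc6 at 45.7, 65.6 and 44.0 TPM and Hoxc10 at 51.9, 47.4 and 52.1 TPM overlapped. In the primary D4 libraries Hoxc10 at 40.1, 46.1 and 26.2 TPM overlapped Hoxa10 at 30.4, 35.4 and 19.5 TPM.

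The tables count reads by transcript, and part of the signal of some Hox genes came from transcripts that the annotation does not class as coding. Coding transcripts held 39.4% of Hoxa10 TPM in C2C12 and 40.1% in primary cells, 40.1% and 43.2% for Hoxa7, and 38.1% and 47.8% for Hoxc6, whereas Hoxc10, Hoxc11 and Hoxc13 were read from coding transcripts alone. The share differed more between C2C12 and primary cells for Hoxa11 (65.0% and 95.1%), Hoxc8 (34.7% and 61.1%) and Hoxa3 (40.7% and 61.9%). An exon of the longer Hoxc5 annotation overlaps Hoxc10 on the same strand, and Hoxd3 overlaps Hoxd4, so reads of these pairs could be split between them. Hoxa11 overlaps the antisense transcript Hoxa11os. Whether the counting used strand is not given in the sources used here.

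Hoxb transcripts were scarce throughout. Hoxb1, whose protein specifies a segment of the hindbrain, ranged from 0.0532 to 0.822 TPM in C2C12 and from 0.124 to 0.626 TPM in primary cells, and Hoxb3 and Hoxb4 stayed at or below 1.06 TPM and 0.782 TPM in every library. Hoxb5, Hoxb6 and Hoxb9 were each at or below 0.249 TPM, and Hoxb2, Hoxb7 and Hoxb13 never exceeded 3 counts. In the Hoxd cluster, Hoxd10 and Hoxd11 stayed at or below 0.228 TPM and Hoxd13 had at most 1 count in a library. Hoxa2, which patterns the second pharyngeal arch, and Hoxa4 were the lowest members of their cluster in C2C12, at 0.325 to 1.62 TPM and 0.750 to 1.72 TPM.

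Primary replicate 3 lacked most of the transcripts of the 2 terminal Hoxa genes. Hoxa11, which shapes the forearm and lower leg, measured 16.1, 17.0 and 0.633 TPM at D0, 11.2, 10.7 and 0.404 at D4 and 13.3, 10.3 and 0.316 at D7 in primary replicates 1, 2 and 3, in that order. Hoxa13, the gene of the hand and foot plate, measured 5.27, 5.35 and 0.196 TPM at D0, 6.19, 4.60 and 0.256 at D4 and 4.73, 4.66 and 0.107 at D7. Replicate 3 was lowest at every day for both genes, far below replicates 1 and 2, and was also below all 21 C2C12 libraries. In bulk RNA, fewer cells that express a gene and less RNA per cell cannot be told apart. Hoxa10, next to Hoxa11, measured 29.9, 33.6 and 19.6 TPM at D0, 30.4, 35.4 and 19.5 at D4 and 33.3, 35.7 and 23.4 at D7, so that replicate 3 kept the neighbouring gene at a lower level. Hoxc12, one of the least transcribed Hoxc genes, went the other way with 1.41, 0.711 and 3.65 TPM at D0, 1.88, 0.672 and 2.90 at D4 and 2.02, 1.56 and 2.69 at D7, replicate 3 being highest throughout.

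The 3 transcribed Hoxd genes were also low in primary replicate 3. Hoxd8 measured 5.25, 3.79 and 0.06998 TPM at D0, 11.9, 23.4 and 1.09 at D4 and 18.0, 36.8 and 2.91 at D7. Hoxd9 measured 1.68, 1.11 and 0.0608 TPM at D0, 3.34, 6.07 and 0.498 at D4 and 3.71, 8.53 and 0.561 at D7. Hoxd4 measured 0.123, 0.0576 and 0 TPM at D0, 1.22, 3.35 and 0.0238 at D4 and 1.51, 3.68 and 0 at D7. For Hoxd8 and Hoxd9, replicate 3 sat below both other replicates at each day, and for Hoxd4 it held at most 1 count. Hoxd3, a neighbour that overlaps Hoxd4, reached 0.958 TPM and had no count in replicate 3. An edgeR test of the replicate number within primary cells, with day as the other factor, called 9 of the 24 Hox genes tested, against 24.8% of the 14352 genes tested. They were Hoxa11 (adjusted p = 0.000401), Hoxa13 (adjusted p = 0.000955), Hoxd8 (adjusted p = 0.00195), Hoxd4, Hoxd9, Hoxa10, Hoxc6, Hoxc8 and Hoxc12. The count fell when D4 or D7 was left out, as given under the dependence on processing. Without replicate 3, 0 Hox genes were called between replicates 1 and 2. That fit held fewer libraries, and its share of all genes called is not given here. The 0 therefore does not show that replicates 1 and 2 agree in Hox level. The fitted log2 difference of replicate 3 from replicate 1 was -4.82 for Hoxa11, -5.07 for Hoxa13 and -3.88 for Hoxd8. The test covered all 3 numbers jointly, so no standard error is given for these differences.

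Some positional factors outside the Hox family also differed with the replicate number. Of 12 limb and trunk factors tested, 7 were called, as were 1 of 9 cofactors of the TALE class and 1 of 4 head muscle factors, against 24.8% of all genes, and the 3 named here were lowest or highest in replicate 3. Lbx1, a factor of muscle precursors that migrate into the limb, measured 18.9, 20.5 and 1.22 TPM at D0, 29.1, 30.6 and 0.715 at D4 and 26.8, 26.1 and 0.866 at D7, with replicate 3 lowest at each day (adjusted p = 0.000574 for the replicate number). En1, which marks the ventral limb ectoderm and the dermomyotome, was 2.73, 2.92 and 0 TPM at D0, 2.58, 3.08 and 0.0929 at D4 and 2.55, 3.33 and 0.0742 at D7, again lowest in replicate 3 (adjusted p = 0.00156). Tbx4, the hindlimb T-box gene, was 5.23, 6.86 and 11.9 TPM at D0, 2.92, 4.47 and 15.9 at D4 and 1.99, 4.51 and 10.6 at D7 and highest in replicate 3 (adjusted p = 0.00316). The summed myogenic markers of replicate 3 lay between 2212 and 3889 TPM over the 3 days, against 2668 to 6138 TPM in replicate 1 and 2830 to 6267 TPM in replicate 2. Summed fibroblast markers ran from 9.20 to 227 TPM in replicate 3, from 84.3 to 300.2 TPM in replicate 1 and from 36.5 to 259 TPM in replicate 2. Those of pericytes and smooth muscle ran from 559 to 1230 TPM in replicate 3, from 1188 to 1460 TPM in replicate 1 and from 1023 to 1548 TPM in replicate 2. Their part in the Hox differences was not tested.

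**Figure D2:**
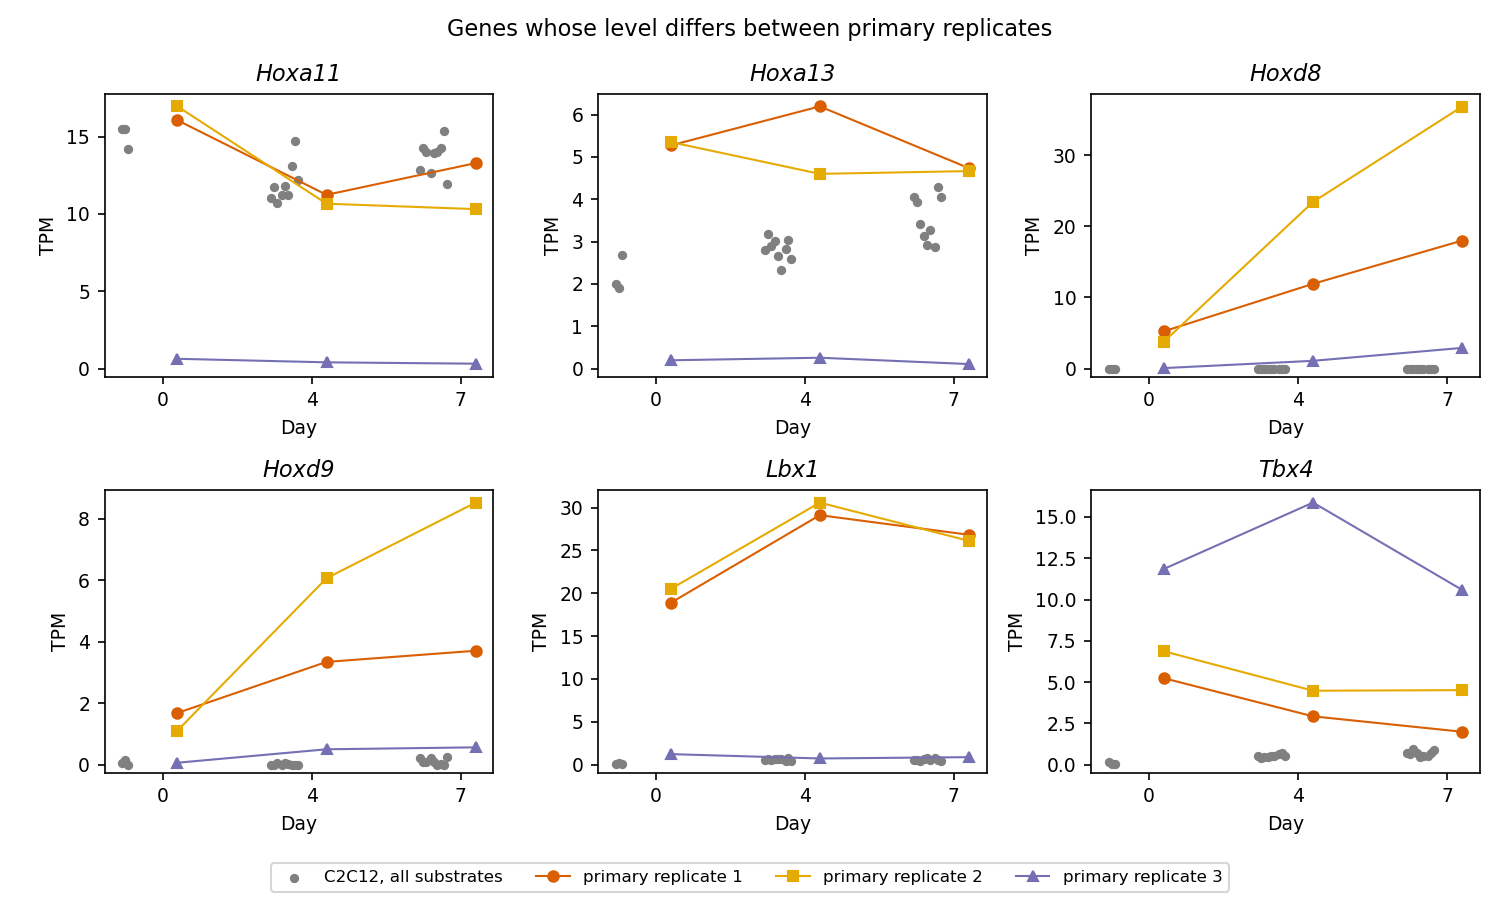
TPM of Hoxa11, Hoxa13, Hoxd8, Hoxd9, Lbx1 and Tbx4 (one panel each, linear axis) at days 0, 4 and 7, drawn at equal steps and shifted sideways around each day, in single C2C12 libraries (grey points, all substrates) and in primary replicates 1, 2 and 3 (coloured lines). Replicate 3 runs along the bottom for Hoxa11 (0.316 to 0.633 TPM) and Lbx1 (0.715 to 1.22 TPM), while Hoxd8 climbs in all 3 replicates.

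**Figure D3:**
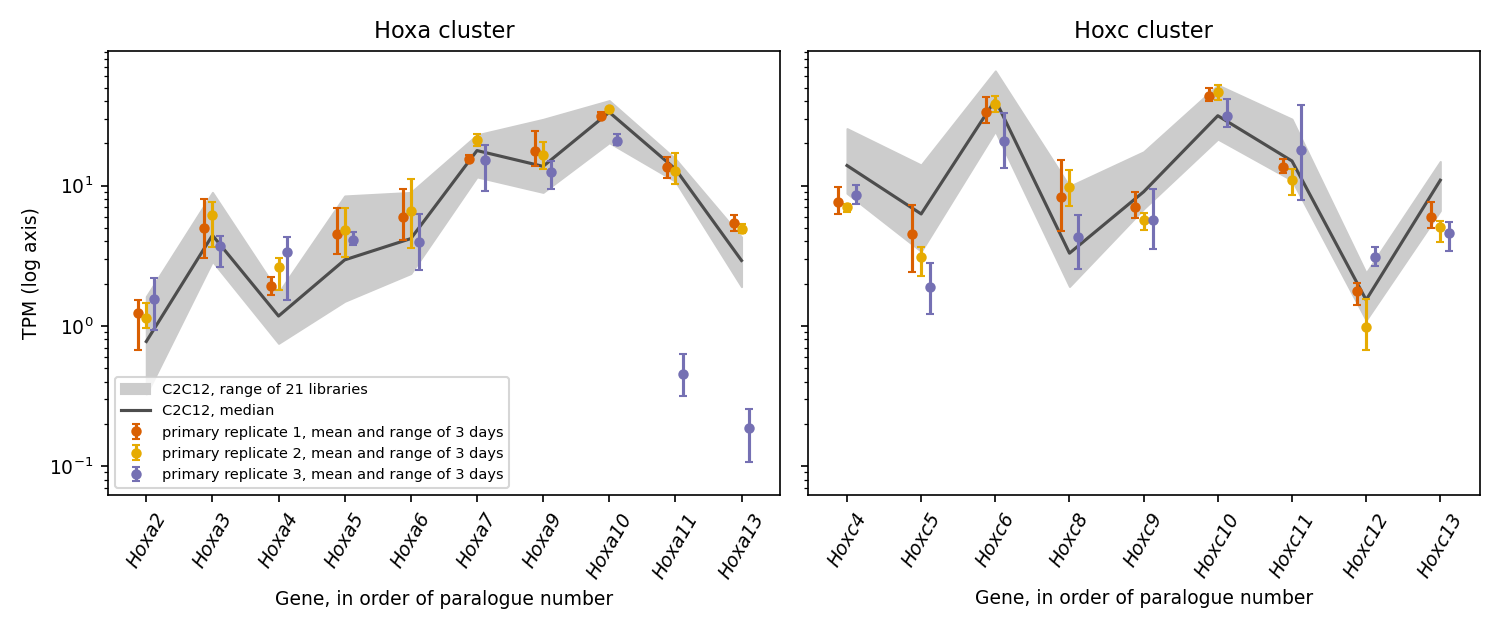
TPM (log axis) of Hoxa genes (left) and Hoxc genes (right) in order of paralogue number. The grey band is the range of 21 C2C12 libraries with their median as a line, and points are the means of primary replicates 1, 2 and 3 with bars for the range over 3 days. The profiles rise to Hoxa10 and to Hoxc6 and Hoxc10, and primary replicate 3 leaves the band at Hoxa11 and Hoxa13.

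Many Hox transcripts were lower in C2C12 myotubes than at D0, and 3 were higher in all 4 comparisons. Of 22 Hox genes tested on patterned gelatin, 12 changed by D4, 3 higher and 9 lower, against 60.1% of the 14844 genes tested (30.9% higher and 29.3% lower). By D7, 15 changed, 3 higher and 12 lower, against 67.7% of genes (34.3% higher and 33.4% lower). On plastic, 13 changed by D4, 5 higher and 8 lower, against 58.0% (30.2% and 27.7%), and 11 changed by D7, 3 higher and 8 lower, against 62.8% (32.2% and 30.6%). The share of Hox genes called was near the share of all genes, or below it on plastic at D7. The median log2 fold change of the 22 genes was -0.31 at D4 and -0.70 at D7 on patterned gelatin, and -0.25 and -0.28 on plastic, where the medians over all genes were -0.02, -0.03, 0.00 and 0.02. These 4 comparisons use the same D0 libraries. Summed Hox TPM was 313 ± 27.2 at D0 and between 193 ± 17.3 and 260 ± 41.7 in the 6 myotube groups (SD, n = 3).

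In C2C12, 7 genes were called lower in all 4 comparisons (Hoxa3, Hoxa5, Hoxa9, Hoxc8, Hoxc9, Hoxc10 and Hoxc11), 3 were called higher in all 4 (Hoxa13, Hoxc4 and Hoxc13), and 4 were called in none (Hoxa4, Hoxa10, Hoxc6 and Hoxc12). The share of all genes called alike in all 4 comparisons is not given here. These counts therefore cannot be read as particular to Hox genes. The values follow from front to rear. Hoxa3 measured 6.57, 8.94 and 5.56 TPM at D0. At D4, Hoxa3 measured 3.83, 5.35 and 4.01 TPM on plastic, 3.52, 3.52 and 3.40 on unpatterned gelatin and 4.79, 3.34 and 4.70 on patterned gelatin. At D7, Hoxa3 measured 5.16, 8.78 and 5.03 TPM on plastic, 4.24, 3.81 and 5.84 on unpatterned gelatin and 4.42, 2.89 and 3.26 on patterned gelatin. Hoxa3, which patterns the thymus and parathyroid, was below all D0 libraries in every library on patterned gelatin, with log2 fold changes of -0.70 (SE 0.15, adjusted p = 0.000351) at D4 and -0.96 (SE 0.15, adjusted p = 1.74e-05) at D7.

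In the centre of the Hoxa cluster, Hoxa5 and Hoxa6 fell. Hoxa5 measured 6.17, 8.43 and 5.29 TPM at D0. At D4, Hoxa5 measured 3.70, 3.91 and 3.52 TPM on plastic, 2.58, 2.95 and 2.48 on unpatterned gelatin and 3.00, 3.30 and 2.90 on patterned gelatin. At D7, Hoxa5 measured 2.95, 3.91 and 3.02 TPM on plastic, 2.80, 2.05 and 2.95 on unpatterned gelatin and 2.90, 1.496 and 1.61 on patterned gelatin. Every myotube library was below every D0 library, and Hoxa5, a gene of the neck and upper thorax, had the lowest log2 fold change at D7 on patterned gelatin, -1.59 (SE 0.19, adjusted p = 5.52e-07). Hoxa6 measured 6.34, 8.93 and 5.36 TPM at D0. At D4, Hoxa6 measured 4.28, 6.09 and 4.33 TPM on plastic, 4.62, 3.87 and 4.47 on unpatterned gelatin and 3.24, 4.21 and 3.91 on patterned gelatin. At D7, Hoxa6 measured 4.19, 4.77 and 3.03 TPM on plastic, 2.76, 2.36 and 4.05 on unpatterned gelatin and 2.64, 2.80 and 3.26 on patterned gelatin. Hoxa6 fell by 1.12 on the log2 scale at D7 on patterned gelatin (SE 0.23, adjusted p = 0.00026) and was called in 3 of the 4 comparisons. Hoxa7 measured 18.6, 18.6 and 17.9 TPM at D0. At D4, Hoxa7 measured 18.9, 23.0 and 19.2 TPM on plastic, 20.4, 15.7 and 16.1 on unpatterned gelatin and 16.6, 20.8 and 18.2 on patterned gelatin. At D7, Hoxa7 measured 17.7, 21.5 and 17.3 TPM on plastic, 17.3, 13.1 and 17.8 on unpatterned gelatin and 17.1, 16.3 and 11.5 on patterned gelatin. Hoxa7, a thoracic gene, lay above its D0 libraries on plastic at D4 and below them on both gelatins at D7. The D4 rise on plastic was called, at 0.33 (SE 0.13, adjusted p = 0.0323). Hoxa2 and Hoxb1, both low, were called lower on patterned gelatin at D7, at -1.1 (SE 0.33, adjusted p = 0.00642) and -1.18 (SE 0.46, adjusted p = 0.0295).

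Among the central Hoxc genes, Hoxc4 rose, while its neighbours fell or were not called. Hoxc4 measured 8.81, 12.7 and 9.22 TPM at D0. At D4, Hoxc4 measured 13.9, 13.7 and 13.3 TPM on plastic, 10.3, 10.8 and 10.1 on unpatterned gelatin and 13.04, 17.2 and 14.7 on patterned gelatin. At D7, Hoxc4 measured 20.5, 25.5 and 17.2 TPM on plastic, 13.9, 15.3 and 17.8 on unpatterned gelatin and 19.1, 17.6 and 15.5 on patterned gelatin. Hoxc4 was higher on patterned gelatin by 0.60 (SE 0.12, adjusted p = 0.000258) at D4 and 0.86 (SE 0.12, adjusted p = 4.34e-06) at D7, and the D7 libraries were all above those of D0. Hoxc5 measured 14.0, 12.3 and 12.3 TPM at D0. At D4, Hoxc5 measured 7.37, 9.34 and 6.90 TPM on plastic, 5.62, 4.30 and 3.67 on unpatterned gelatin and 5.25, 7.27 and 5.70 on patterned gelatin. At D7, Hoxc5 measured 9.98, 11.3 and 6.27 TPM on plastic, 6.37, 4.09 and 4.64 on unpatterned gelatin and 6.09, 3.40 and 6.11 on patterned gelatin. Every myotube library lay below those of D0, and Hoxc5 was called on patterned gelatin in both comparisons, with -1.16 (SE 0.24, adjusted p = 0.000266) at D7. Hoxc6 measured 45.7, 65.6 and 44.0 TPM at D0. At D4, Hoxc6 measured 39.4, 53.4 and 37.4 TPM on plastic, 35.5, 28.6 and 24.4 on unpatterned gelatin and 36.1, 49.95 and 40.8 on patterned gelatin. At D7, Hoxc6 measured 42.3, 62.4 and 31.6 TPM on plastic, 42.8, 32.2 and 38.2 on unpatterned gelatin and 43.4, 33.2 and 43.6 on patterned gelatin. Hoxc6, which marks the forelimb level of the spinal cord, varied widely between libraries of a group and was not called in any of the 4 comparisons. Hoxc8 measured 7.21, 9.87 and 6.26 TPM at D0. At D4, Hoxc8 measured 3.50, 4.17 and 4.04 TPM on plastic, 3.08, 2.57 and 2.53 on unpatterned gelatin and 2.65, 3.94 and 3.29 on patterned gelatin. At D7, Hoxc8 measured 5.26, 6.70 and 3.07 TPM on plastic, 3.24, 2.66 and 3.18 on unpatterned gelatin and 3.46, 2.30 and 1.91 on patterned gelatin. This gene of the lower thorax fell by 1.51 on the log2 scale at D7 on patterned gelatin (SE 0.22, adjusted p = 5.71e-06), where no library reached those of D0. Hoxb4 measured 0.782, 0.703 and 0.603 TPM at D0. At D4, Hoxb4 measured 0.452, 0.620 and 0.447 TPM on plastic, 0.409, 0.633 and 0.374 on unpatterned gelatin and 0.467, 0.681 and 0.358 on patterned gelatin. At D7, Hoxb4 measured 0.422, 0.366 and 0.469 TPM on plastic, 0.436, 0.199 and 0.345 on unpatterned gelatin and 0.1495, 0.425 and 0.135 on patterned gelatin. Hoxb4 stayed under 1 TPM and was called lower at D7 on patterned gelatin, at -1.5 (SE 0.38, adjusted p = 0.00192).

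Of the rear genes, Hoxa9, Hoxc9, Hoxc10 and Hoxc11 fell and the terminal genes Hoxa13 and Hoxc13 rose. Hoxa9 measured 24.7, 29.6 and 25.1 TPM at D0. At D4, Hoxa9 measured 14.1, 15.7 and 15.2 TPM on plastic, 13.7, 12.5 and 10.4 on unpatterned gelatin and 10.9, 12.3 and 14.3 on patterned gelatin. At D7, Hoxa9 measured 13.3, 16.0 and 14.7 TPM on plastic, 12.8, 13.2 and 15.4 on unpatterned gelatin and 11.97, 12.6 and 8.94 on patterned gelatin. All myotube libraries lay below all D0 libraries, and the log2 fold change on patterned gelatin was -0.96 (SE 0.12, adjusted p = 8.51e-07) at D4. Hoxc9 measured 14.5, 17.4 and 17.3 TPM at D0. At D4, Hoxc9 measured 10.7, 10.3 and 10.2 TPM on plastic, 9.55, 8.29 and 6.83 on unpatterned gelatin and 8.96, 8.72 and 9.03 on patterned gelatin. At D7, Hoxc9 measured 12.6, 10.7 and 8.19 TPM on plastic, 9.65, 7.36 and 8.39 on unpatterned gelatin and 8.97, 8.38 and 8.97 on patterned gelatin. Hoxc9, a determinant of thoracic motor neurons, was lower in every myotube library than at D0 and changed on patterned gelatin by -0.76 (SE 0.14, adjusted p = 8.18e-05) at D4. Hoxc10 measured 51.9, 47.4 and 52.1 TPM at D0. At D4, Hoxc10 measured 29.6, 33.4 and 32.1 TPM on plastic, 23.8, 25.1 and 21.5 on unpatterned gelatin and 26.1, 31.5 and 33.4 on patterned gelatin. At D7, Hoxc10 measured 28.5, 36.0 and 29.4 TPM on plastic, 26.5, 22.2 and 31.6 on unpatterned gelatin and 33.3, 37.6 and 22.7 on patterned gelatin. Hoxc10, a marker of the hindlimb level, was lower in every myotube library than at D0 and changed on patterned gelatin by -0.68 (SE 0.13, adjusted p = 0.000113) at D4 and -0.62 (SE 0.13, adjusted p = 0.000282) at D7. Hoxc11 measured 29.1, 29.8 and 26.2 TPM at D0. At D4, Hoxc11 measured 15.9, 16.5 and 14.4 TPM on plastic, 14.97, 12.5 and 10.9 on unpatterned gelatin and 12.4, 15.5 and 14.9 on patterned gelatin. At D7, Hoxc11 measured 13.1, 18.6 and 13.4 TPM on plastic, 12.8, 12.4 and 16.4 on unpatterned gelatin and 16.8, 15.5 and 14.5 on patterned gelatin. Its D0 libraries, between 26.2 and 29.8 TPM, were above every myotube library, and the change on patterned gelatin was -0.93 (SE 0.12, adjusted p = 1.08e-06) at D4.

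Of the remaining rear Hoxa genes, Hoxa13 rose in C2C12. Hoxa10 measured 36.5, 40.3 and 33.2 TPM at D0. At D4, Hoxa10 measured 27.6, 29.997 and 28.9 TPM on plastic, 32.2, 31.3 and 29.2 on unpatterned gelatin and 31.1, 37.4 and 34.4 on patterned gelatin. At D7, Hoxa10 measured 33.3, 38.3 and 35.5 TPM on plastic, 35.6, 28.5 and 35.3 on unpatterned gelatin and 36.0, 37.0 and 20.2 on patterned gelatin. Hoxa10, whose paralogues suppress ribs in the lumbar region, lay below its D0 libraries on plastic at D4 and was not called in any of the 4 comparisons. Hoxa11 measured 15.5, 15.5 and 14.2 TPM at D0. At D4, Hoxa11 measured 11.01, 11.7 and 10.7 TPM on plastic, 11.2, 11.8 and 11.2 on unpatterned gelatin and 13.1, 14.7 and 12.2 on patterned gelatin. At D7, Hoxa11 measured 12.9, 14.3 and 14.0 TPM on plastic, 12.6, 13.9 and 14.0 on unpatterned gelatin and 14.3, 15.4 and 11.95 on patterned gelatin. Its libraries on plastic and unpatterned gelatin at D4 were the lowest, and the one call for Hoxa11 was on plastic at D4, -0.22 (SE 0.08, adjusted p = 0.023). Hoxa13 measured 1.99, 1.90 and 2.67 TPM at D0. At D4, Hoxa13 measured 2.79, 3.17 and 2.89 TPM on plastic, 3.02, 2.66 and 2.32 on unpatterned gelatin and 2.84, 3.03 and 2.58 on patterned gelatin. At D7, Hoxa13 measured 4.06, 3.94 and 3.41 TPM on plastic, 3.13, 2.92 and 3.28 on unpatterned gelatin and 2.87, 4.30 and 4.05 on patterned gelatin. All D7 libraries of Hoxa13 were above those of D0. It was called higher in all 4 comparisons, by 0.58 (SE 0.15, adjusted p = 0.0029) at D4 and 0.69 (SE 0.16, adjusted p = 0.000707) at D7 on patterned gelatin.

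The last 2 Hoxc genes differed from each other. Hoxc12 measured 1.15, 1.90 and 1.72 TPM at D0. At D4, Hoxc12 measured 1.099, 1.91 and 1.42 TPM on plastic, 1.36, 1.68 and 1.12 on unpatterned gelatin and 1.41, 2.22 and 1.49 on patterned gelatin. At D7, Hoxc12 measured 1.75, 1.43 and 1.91 TPM on plastic, 1.105, 1.23 and 1.61 on unpatterned gelatin and 1.53, 1.80 and 2.38 on patterned gelatin. Libraries of D0, D4 and D7 overlapped, and Hoxc12 was not called. Hoxc13 measured 7.85, 6.63 and 6.97 TPM at D0. At D4, Hoxc13 measured 11.9, 12.1 and 10.9 TPM on plastic, 9.66, 10.7 and 9.01 on unpatterned gelatin and 9.65, 12.7 and 11.4 on patterned gelatin. At D7, Hoxc13 measured 13.1, 14.8 and 12.95 TPM on plastic, 10.8, 7.76 and 12.2 on unpatterned gelatin and 12.6, 14.2 and 6.66 on patterned gelatin. Hoxc13, known for its part in hair and nail formation, was called higher in all 4 comparisons, with 0.91 (SE 0.17, adjusted p = 0.000102) on plastic at D4 and 0.71 (SE 0.17, adjusted p = 0.00119) on patterned gelatin at D7, where replicate 3, the library of lowest depth, fell into the range of D0. The Hoxd genes were too low to be tested in C2C12. Hoxd8 and Hoxd3 had no count in any C2C12 library, Hoxd4 stayed at or below 0.0942 TPM and Hoxd9 at or below 0.240 TPM.

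Among the substrate comparisons, unpatterned gelatin against plastic at D4 gave the most Hox calls, a count that depended on single libraries. On unpatterned gelatin 7 of 22 genes were lower than on plastic and 0 were higher, against 7.89% of all genes tested (3.87% lower and 4.02% higher). The 7 genes were Hoxc5 at -0.80 (SE 0.23, adjusted p = 0.042), Hoxc6 at -0.76 (SE 0.17, adjusted p = 0.0123), Hoxc10 at -0.56 (SE 0.13, adjusted p = 0.0153), Hoxc4 at -0.52 (SE 0.12, adjusted p = 0.0162), Hoxa3, Hoxc9 and Hoxc11. All 22 fitted values were below 0, that of Hoxb1 at 0.00 after rounding, with a median log2 fold change of -0.40 where that of all genes was -0.01. Summed Hox TPM was 210, 194 and 175 on unpatterned gelatin, below the 227, 260 and 226 on plastic, and the 207, 256 and 235 on patterned gelatin overlapped both. Without plastic replicate 2 or without unpatterned replicate 3 no Hox gene was called. Leaving out plastic replicate 1 or 3 left 2 calls each, and leaving out unpatterned replicate 2 left 1.

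Patterned and unpatterned gelatin, the comparison for which the grooves were made, gave no Hox call. At D4, 0 of 22 genes were called by edgeR, against 0.00674% of all genes tested. DESeq2 called 1, which was Hoxc4, and 0.943% of all genes. By edgeR, 4 of the 22 had an unadjusted p under 0.05, for which the share of all genes is not given here. The edgeR values of the 4 were 0.48 (SE 0.12, adjusted p = 0.141) for Hoxc4, 0.47 (SE 0.17, adjusted p = 0.365) for Hoxc6, 0.34 (SE 0.13, adjusted p = 0.42) for Hoxc10 and 0.21 (SE 0.08, adjusted p = 0.43) for Hoxa11. In each of these 4 genes, picked by their p, the patterned libraries lay above the unpatterned ones. The share of all genes whose libraries did not overlap is not given here. Of the 22 fitted values, 21 were above 0. At D7, 0 genes were called, against 0.546% of all genes (0.397% higher and 0.148% lower), with 0 at an unadjusted p under 0.05 and 0 by DESeq2, which called 3.29% of all genes.

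Patterned gelatin against plastic gave 0 calls at D4, against 3.55% of all genes (2.1% higher and 1.46% lower), with 5 genes at an unadjusted p under 0.05. DESeq2 called 0, where it called 6.78% of all genes. A fit of these 2 groups alone called 4 of 22, where 17.2% of all genes were called. At D7, 5 genes were lower on patterned gelatin, against 23.8% of all genes (10.9% lower). They were Hoxb1 at -1.28 (SE 0.46, adjusted p = 0.0486), Hoxc8 at -0.83 (SE 0.22, adjusted p = 0.0146), Hoxc5 at -0.78 (SE 0.24, adjusted p = 0.0273), Hoxa5 and Hoxa3, and a fit of these 2 groups alone called 0, where 0.151% of all genes were called. This count was 0 without plastic replicate 2, 2 without plastic replicate 1, patterned replicate 2 or patterned replicate 3, and 3 without plastic replicate 3. Unpatterned gelatin at D7 gave 0 calls against plastic, where 3.46% of all genes were called (2.49% higher and 0.977% lower), with 5 genes at an unadjusted p under 0.05. DESeq2 called 0, where it called 6.41% of all genes. The edgeR count was 3 without plastic replicate 3. Most fitted values against plastic were below 0 here too, called or not. At D7 these were 20 of 22 for unpatterned gelatin (median -0.28) and 18 of 22 for patterned gelatin (median -0.19). At D4 they were 16 of 22 for patterned gelatin (median -0.19). The medians over all genes were -0.0024, 0.0054 and -0.0097, in that order.

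**Figure D4:**
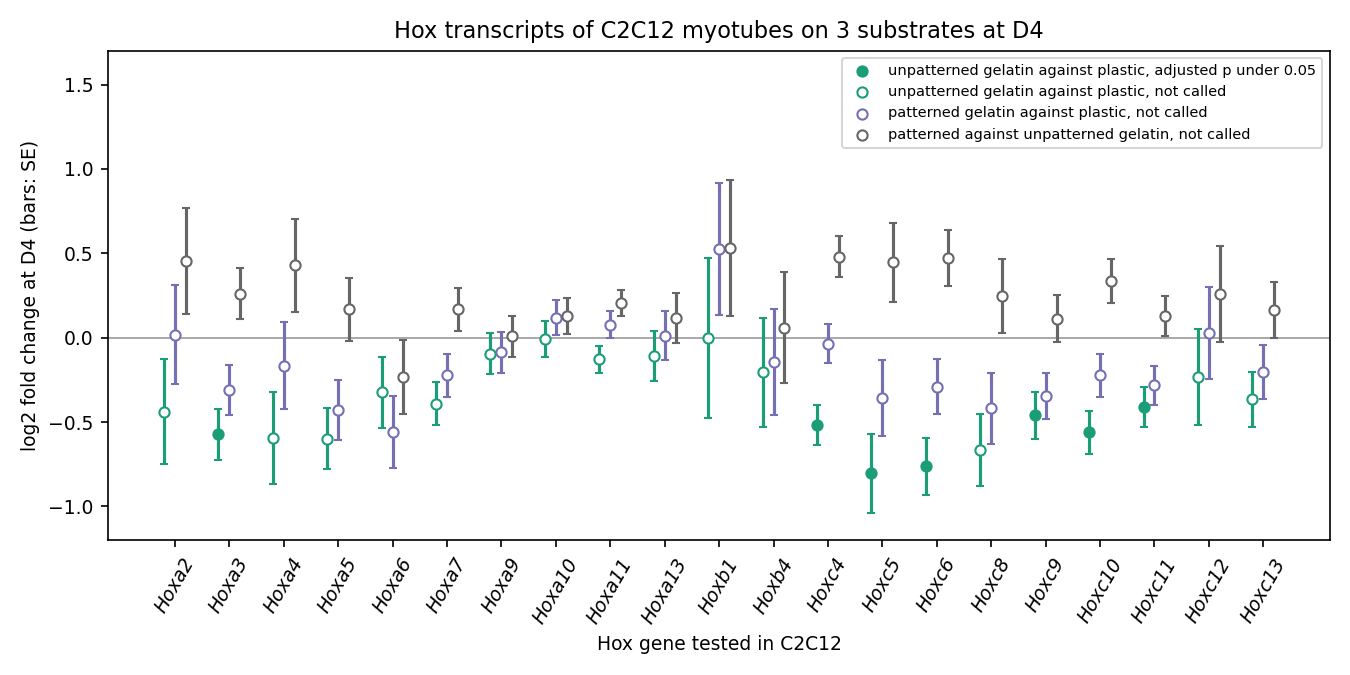
Log2 fold change of 21 Hox genes tested in C2C12 at D4 between substrates, as points with bars for the standard error. Filled points have an adjusted p under 0.05. The points of unpatterned gelatin against plastic lie below 0, or for Hoxb1 on the line, with 7 filled, and no other point is filled.

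Some Hox transcripts were lower in primary myotubes than at D0, and with the replicate number as a block some were also higher, Hoxd genes among them. Without the block, the share of Hox genes called was below that of all genes at both days. With the block it was below at D4 and near that of all genes at D7 (58.3% against 60.6%). Without the block, 3 of 24 genes tested were lower at D4 and 0 higher, against 42.6% of the 14352 genes tested (22.4% lower and 20.2% higher), and 5 were lower at D7 and 0 higher, against 46.9% (24.6% lower and 22.3% higher). With the block, 11 changed by D4, 4 higher and 7 lower, against 57.7% (27.4% higher and 30.2% lower), and 14 by D7, 5 higher and 9 lower, against 60.6% (29.0% higher and 31.7% lower). Without replicate 3 at every day the counts in the unblocked fit were 10 and 9 of 25, against 56.6% and 60.4% of all genes. They were 0 at both days without replicate 1, where 23.0% and 27.5% of all genes were called, and 0 without replicate 2, where 14.5% and 20.2% were. Leaving out single libraries also lowered the D7 count, to 1 without D7 replicate 1 and to 3 without D7 replicate 2, D0 replicate 1 or D0 replicate 2. Between D4 and D7, 0 genes were called, against 0.0% of all genes, with 1 at an unadjusted p under 0.05.

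Hoxd8 climbed in each of the 3 primary replicates. Its values given above rose from D0 to D4 and again to D7 in replicate 1, in replicate 2 and, from a level near 0, in replicate 3. The blocked log2 fold change was 2.29 (SE 0.41, adjusted p = 0.00208) at D4 and 3.05 (SE 0.42, adjusted p = 0.000458) at D7, and without the block the adjusted p was 0.209 and 0.128. Hoxd9 also rose in all 3 replicates, with 2.22 (SE 0.40, adjusted p = 0.00197) at D7, where the adjusted p without the block was 0.16. Hoxd4 rose in replicates 1 and 2 and stayed at 0 or 1 count in replicate 3. Its blocked value was 4.55 (SE 0.66, adjusted p = 0.000605) at D7, and the adjusted p without the block was 0.0662. Hoxa4 was higher in all 3 replicates at both days, with values of 1.65, 1.81 and 1.52 TPM at D0, 1.88, 3.05 and 4.27 at D4 and 2.24, 2.97 and 4.27 at D7. Its blocked log2 fold change was 0.95 (SE 0.30, adjusted p = 0.0251) at D7, and the adjusted p without the block was 0.0643.

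The lowered genes lay in the Hoxa and Hoxc clusters. Hoxa6 measured 9.41, 11.2 and 6.32 TPM at D0, 4.09, 4.81 and 2.99 at D4 and 4.30, 3.61 and 2.51 at D7 in primary replicates 1, 2 and 3. No D4 or D7 library reached the lowest D0 library, and the log2 fold change was -1.12 (SE 0.30, adjusted p = 0.0171) at D4 and -1.29 (SE 0.31, adjusted p = 0.00812) at D7. Hoxa3 measured 8.08, 7.58 and 4.40 TPM at D0, 3.72, 3.64 and 2.63 at D4 and 3.06, 7.28 and 4.16 at D7. It was lower at D4 in all 3 replicates, at -0.91 (SE 0.21, adjusted p = 0.008), and at D7 mainly in replicate 1, where the fit gave -0.64 (SE 0.21, adjusted p = 0.0337). Hoxc9 measured 9.03, 6.33 and 9.51 TPM at D0, 5.89, 4.82 and 4.13 at D4 and 6.05, 5.79 and 3.51 at D7. The D0 libraries were the highest 3, and the fold change was -0.69 (SE 0.24, adjusted p = 0.0455) at D4 and, with the block, -0.65 (SE 0.23, adjusted p = 0.0446) at D7.

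Hoxa5 and Hoxc11 were called at D7. Hoxa5 measured 6.86, 6.95 and 4.65 TPM at D0, 3.24, 4.51 and 3.79 at D4 and 3.51, 3.08 and 3.76 at D7, with all D7 libraries under those of D0 and -0.74 (SE 0.23, adjusted p = 0.0297). Hoxc11 measured 15.4, 13.1 and 37.7 TPM at D0, 13.2, 11.03 and 8.31 at D4 and 12.3, 8.50 and 7.91 at D7, and D0 of replicate 3 was the highest Hoxc11 value in the series. The D7 change of Hoxc11 was -1.14 (SE 0.41, adjusted p = 0.0489), and with the block the adjusted p was 0.0533.

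Genes called in the blocked fit alone had wide differences between replicates. Hoxa9 measured 24.5, 20.5 and 15.03 TPM at D0, 13.8, 16.2 and 12.9 at D4 and 14.7, 13.1 and 9.38 at D7. Hoxc6 measured 43.1, 43.7 and 33.1 TPM at D0, 28.1, 33.3 and 16.1 at D4 and 29.0, 37.2 and 13.4 at D7. Hoxc8 measured 15.3, 12.8 and 6.15 TPM at D0, 5.004, 9.36 and 4.27 at D4 and 4.73, 7.14 and 2.55 at D7. Each fell within every replicate from D0 to D7. Their blocked D7 values were -0.52 (SE 0.12, adjusted p = 0.00564), -0.66 (SE 0.18, adjusted p = 0.0135) and -1.19 (SE 0.24, adjusted p = 0.00342), against an adjusted p of 0.0513, 0.214 and 0.0618 without the block. Hoxa11, at the levels given above, fell within each replicate by 0.50 on the log2 scale at D7 (SE 0.18, adjusted p = 0.0413 with the block and 0.831 without). Hoxa10 rose slightly by D7, 0.24 (SE 0.08, adjusted p = 0.042) with the block and an adjusted p of 0.501 without it.

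Other members were not called in primary cells, with or without the block. Hoxc10, the highest, measured 41.8, 40.8 and 41.7 TPM at D0, 40.1, 46.1 and 26.2 at D4 and 49.7, 52.3 and 26.7 at D7. Hoxa7 measured 14.98, 21.3 and 9.11 TPM at D0, 16.6, 19.3 and 16.8 at D4 and 14.8, 23.3 and 19.6 at D7. Hoxc4 measured 9.78, 7.20 and 7.45 TPM at D0, 6.31, 6.496 and 10.1 at D4 and 6.90, 7.37 and 8.02 at D7. For these 3 genes the libraries of D7 overlapped those of D0. Hoxc5 measured 7.32, 3.65 and 1.61 TPM at D0, 3.77, 3.34 and 1.22 at D4 and 2.43, 2.27 and 2.81 at D7. Hoxc13 measured 7.69, 5.54 and 5.54 TPM at D0, 4.94, 5.61 and 3.41 at D4 and 5.34, 3.95 and 4.72 at D7. Hoxb4 measured 0.216, 0.0260 and 0.0261 TPM at D0, 0.0311, 0 and 0.0358 at D4 and 0.0423, 0.0883 and 0.0919 at D7. Hoxc5 overlapped between days, Hoxc13 at D7 lay under its D0 libraries, and Hoxb4 was too low to be tested in primary cells alone.

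**Figure D5:**
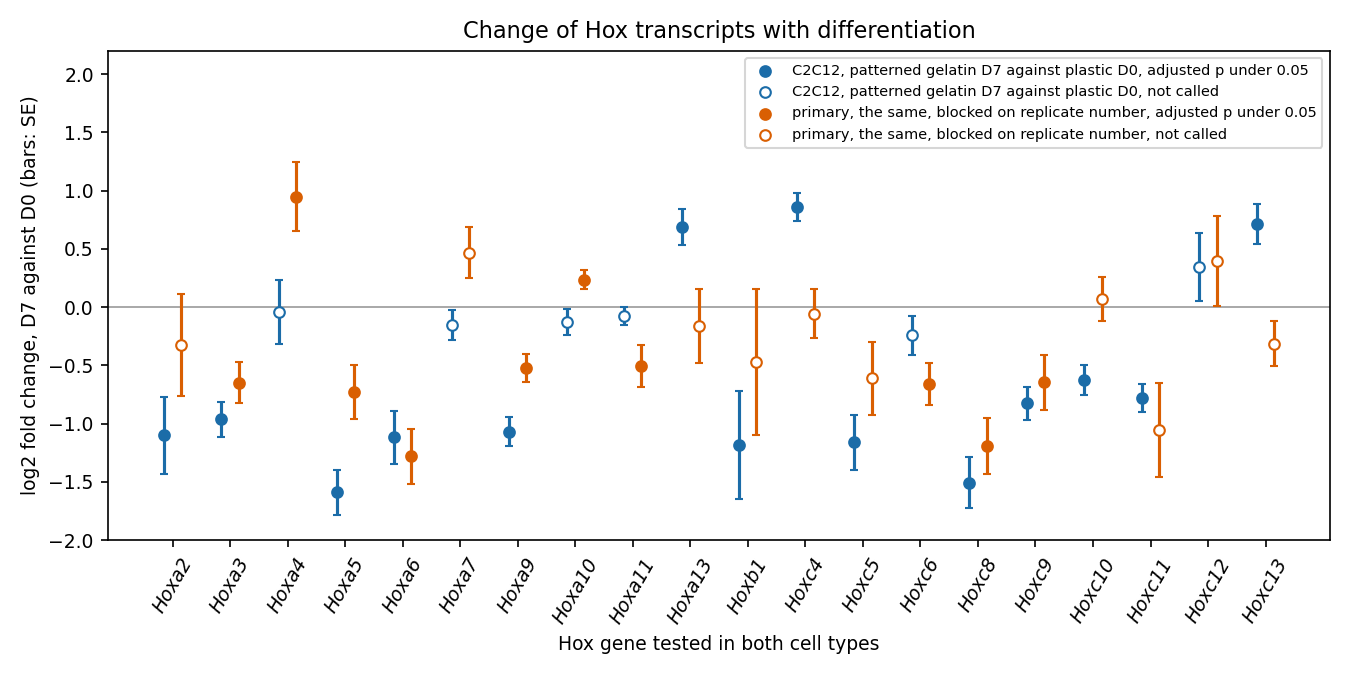
Log2 fold change of D7 on patterned gelatin against D0 (labelled plastic) for 20 Hox genes tested in both cell types. C2C12 is blue (no block) and primary cells are orange (blocked on replicate number). Bars are the standard error, and filled points have an adjusted p under 0.05. Hoxa3, Hoxa5, Hoxa6, Hoxa9, Hoxc8 and Hoxc9 are filled below 0 in both, while Hoxc4 and Hoxc13 are filled above 0 in C2C12 alone.

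Set side by side at the same day, and at D4 and D7 on the same substrate, primary cells had Hoxd transcripts that C2C12 lacked. At D0 the surface may have differed. Of 25 Hox genes tested, 7 differed at D0, 3 higher and 4 lower in primary cells, against 57.5% of the 15447 genes tested (29.6% higher and 27.9% lower). At D4, 12 differed, 7 higher and 5 lower, against 50.6% (25.7% and 25%), and at D7, 12 differed, 8 higher and 4 lower, against 51.5% (25% and 26.4%). Without primary replicate 3 the counts were 10, 13 and 17 of 26, against 60.9%, 53.5% and 56.3% of all genes. Cell type here also means strain, age in culture, growth medium and dish coating before plating, and 1 clone against 3 mice, which cannot be told apart.

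Hoxd8 had no count in C2C12 and 275, 1302 and 1574 counts over the 3 primary libraries of D0, D4 and D7. Against a floor of 3 counts over the C2C12 group, Hoxd8 was at least 78.0-fold higher at D0, at least 449-fold higher at D4 and at least 408-fold higher at D7 in primary cells on the CPM scale. Hoxd9 was 13.3-fold higher at D0 (95% counting interval 5.90 to 37.2), at least 108-fold higher at D4 and 52.1-fold higher at D7 (22.1 to 161). Hoxd4 had 6 counts in primary cells and 5 in C2C12 at D0, was at least 44.5-fold higher at D4, and had 127 counts against 1 at D7, a ratio of 98.7 (17.4 to 3930). Hoxb4 went the other way, with ratios of 0.125 (0.0597 to 0.236) at D0, 0.0509 (0.0102 to 0.156) at D4 and 0.327 (0.124 to 0.783) at D7. In the fit across all genes, Hoxd8 and Hoxd9 were called higher at all 3 days (adjusted p between 9.61e-05 and 0.0264), Hoxd4 was called higher at D4 and D7, and Hoxb4 was called lower at D0 and D4. The D0 call of Hoxd8 held in 7 of its 14 alternatives, and its D0 library of primary replicate 3 had 0.06998 TPM. The folds and intervals pool the primary replicates and do not measure the spread between them. In replicate 3, Hoxd4 held 0, 1 and 0 counts at D0, D4 and D7, and Hoxd8 and Hoxd9 held about 2 counts each at D0. There the pooled folds do not describe replicate 3.

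Within the Hoxc cluster, Hoxc4, Hoxc5, Hoxc9 and Hoxc13 were lower and Hoxc8 and Hoxc10 higher in primary cells. Hoxc5 was lower at D0, D4 and D7, at -1.37 (SE 0.31, adjusted p = 0.000652), -1.21 (SE 0.32, adjusted p = 0.00321) and -0.96 (SE 0.33, adjusted p = 0.0184). No primary library reached the C2C12 libraries it was compared with, which at D4 and D7 were those on patterned gelatin. Hoxc9 was lower on the same days, at -0.83 (SE 0.18, adjusted p = 0.000328), -0.72 (SE 0.18, adjusted p = 0.00211) and -0.63 (SE 0.19, adjusted p = 0.00625). Hoxc4 and Hoxc13, which rose in C2C12 myotubes, were lower in primary myotubes at D7, at -1.13 (SE 0.17, adjusted p = 4.93e-06) and -1.11 (SE 0.20, adjusted p = 4.66e-05). Neither passed the threshold at D0. Hoxc8 and Hoxc10 were higher in primary myotubes at D7, by 0.94 (SE 0.33, adjusted p = 0.0207) and 0.58 (SE 0.19, adjusted p = 0.0126), with overlapping libraries in both cases.

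In the Hoxa cluster, Hoxa4 was higher in primary myotubes at D4 by 1.55 (SE 0.31, adjusted p = 0.000217) and at D7 by 1.44 (SE 0.32, adjusted p = 0.000609), with no overlap of the libraries. Hoxa5 was higher at D7 by 0.90 (SE 0.20, adjusted p = 0.000743), and Hoxa2 by 1.11 (SE 0.41, adjusted p = 0.0255). At D0, Hoxa9 was lower, at -0.37 (SE 0.15, adjusted p = 0.0414), which was called in 6 of its 15 alternatives. Hoxa10 and Hoxa7 were not called on any day, and neither were Hoxa11 and Hoxa13, whose primary libraries included replicate 3.

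The change from D0 to D4 or D7 differed between cell types in few Hox genes. For D4 against D0 the interaction was called in 2 of 25 genes, against 20.5% of all genes tested, and for D7 in 5 of 25, against 32.0%. These interactions reuse the D0 libraries of both cell types. Hoxc13 rose in C2C12 on patterned gelatin and was not called in primary cells, with a primary minus C2C12 difference in the change of -1.01 (SE 0.27, adjusted p = 0.00946) at D4 and -1.01 (SE 0.28, adjusted p = 0.00682) at D7 on the log2 scale. Hoxc4 also rose in C2C12 and was not called in primary cells, with a difference of -0.89 (SE 0.24, adjusted p = 0.00564) at D7. Hoxc10 fell in C2C12 and was not called in primary cells, with a difference of 0.76 (SE 0.27, adjusted p = 0.0306) at D7. Hoxa9 had a difference of 0.67 (SE 0.22, adjusted p = 0.0292) at D4, where its change was -0.96 in C2C12 and -0.34 in primary cells, the latter not called without the block. Hoxa5 fell less in primary cells than in C2C12 by D7, with a difference of 0.90 (SE 0.28, adjusted p = 0.0159), and without primary replicate 3 its adjusted p was 0.0735. Without primary replicate 3 the counts were 7 and 8 of 26, against 28.1% and 37.5% of all genes, and the D4 count was 1 without C2C12 patterned replicate 1, C2C12 D0 replicate 1, primary D4 replicate 2 or primary replicate 2 at every day. The D7 count was 8 without primary D0 replicate 1, and the D4 count was 5 without primary D4 replicate 3.

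Hox proteins bind DNA together with partners of the TALE class (Pbx, Meis and Pknox), and 9 such genes were measured. Primary cells had 2 higher and 2 lower at D0, 4 and 4 at D4, and 3 and 4 at D7, beside 57.5%, 50.6% and 51.5% of all genes called in either direction at D0, D4 and D7. Meis1 was 18.3, 17.6 and 15.01 TPM in C2C12 and 3.71, 2.45 and 3.42 TPM in primary cells at D0, a log2 fold change of -2.30 (SE 0.16, adjusted p = 1.4e-11). Against D0, 6 of the 9 were lower and 1 was higher in C2C12 on patterned gelatin at D7, and 4 were lower and 2 higher in primary cells. Of all genes, 33.4% were lower and 34.3% higher in that C2C12 comparison, and 24.6% and 22.3% in the primary one. Meis2 fell from 89.0, 90.5 and 81.7 TPM to 28.5, 14.8 and 18.3 TPM in C2C12 and from 89.0, 70.4 and 66.9 TPM to 18.7, 18.9 and 20.6 TPM in primary cells.

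Of the 16 limb and trunk positional factors, 13 were tested between cell types, and 6 were higher and 3 lower in primary cells at D0, at D4 and at D7, where 57.5%, 50.6% and 51.5% of all genes were called. Tbx4, at the primary levels given above, was at most 0.925 TPM in C2C12, with 6.60 (SE 0.74, adjusted p = 5.44e-08) at D0. Tbx5, its forelimb counterpart, stayed at or below 0.345 TPM in all libraries and was not called. Pitx1, the hindlimb factor upstream of Tbx4, was listed at 0 in all 30 libraries. Lbx1 was at most 0.752 TPM in C2C12 and was higher in primary cells by 4.99 (SE 1.08, adjusted p = 0.00046) at D7. Shox2, a gene of the upper limb segment, had the smallest adjusted p of the list at D0 and was lower in primary cells, with 39.04, 50.2 and 38.4 TPM in C2C12 and 2.44, 3.19 and 2.38 TPM in primary cells at D0, a change of -3.69 (SE 0.13, adjusted p = 2.91e-17). En1 was lower in primary cells at D0, at -2.52 (SE 0.76, adjusted p = 0.00667), a value that includes replicate 3, its lowest primary library.

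Of 6 head muscle factors, 5 were tested, with 2 higher and 3 lower in primary cells at D0, 1 and 1 at D4, and 2 and 1 at D7, against the same 57.5%, 50.6% and 51.5% of all genes. Msc was 8.01, 14.3 and 11.3 TPM in C2C12 and 0, 0.132 and 0.101 TPM in primary cells at D0. Isl1, which belongs to this list and the limb list, measured 0.122, 0 and 3.49 TPM at D0, 0.649, 0.617 and 2.31 at D4 and 0.821, 1.18 and 3.50 at D7 in primary cells, highest in replicate 3.

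Among 25 Polycomb genes, 8 were higher and 7 lower in primary cells at D0, 3 and 6 at D4, and 0 and 9 at D7, with 57.5%, 50.6% and 51.5% of all genes called on these days. Ezh2, the histone H3K27 methyltransferase of dividing cells, fell with differentiation from 79.1, 82.5 and 65.6 TPM to 28.4, 19.4 and 21.3 TPM in C2C12 and from 83.1, 77.0 and 63.2 TPM to 13.3, 15.3 and 9.61 TPM in primary cells, and was lower in primary myotubes at D7, at -0.90 (SE 0.12, adjusted p = 1.92e-06). Phf19, an accessory subunit, measured 9.84, 12.4 and 8.87 TPM in C2C12 and 0.431, 0.148 and 0.501 TPM in primary cells at D0, -5.03 (SE 0.27, adjusted p = 7.66e-14). Of 13 Trithorax and H3K27 demethylase genes, 1 was higher and 7 lower at D0, 1 and 6 at D4, and 2 and 6 at D7, beside the same shares of all genes, with the demethylase gene Kdm6a lower at -0.79 (SE 0.14, adjusted p = 2.74e-05) at D0.

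Cdx factors and signals such as retinoic acid act upstream of Hox expression in the embryo. Of 12 such genes, 8 were tested, with 3 higher and 4 lower in primary cells at D0, 2 and 3 at D4, and 2 and 2 at D7, against 57.5%, 50.6% and 51.5% of all genes called. Aldh1a2, which makes retinoic acid, measured 11.8, 9.78 and 0.741 TPM at D0, 3.72, 5.74 and 1.23 at D4 and 2.97, 3.66 and 0.959 at D7 in primary cells and was near 0 in C2C12, and the retinoic acid receptor gene Rarg was lower in primary cells at D0, at -1.62 (SE 0.12, adjusted p = 5.29e-11). Of 11 genes that flank the clusters, 8 were tested, with 5 higher and 0 lower at D0, 4 and 0 at D4, and 5 and 2 at D7. Of all genes, 29.6%, 25.7% and 25% were higher and 27.9%, 25% and 26.4% lower on these days. Mtx2, beside the Hoxd cluster, was higher by 0.94 (SE 0.08, adjusted p = 7.95e-10) at D0, and Hibadh, near the Hoxa cluster, by 1.20 (SE 0.10, adjusted p = 1.63e-10). The 17 non-coding genes of the clusters were not analysed here.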

How the data were processed

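RNA was sequenced from 3 libraries in each of the 10 groups, and the authors quantified each library by pseudoalignment with Kallisto against mm10 transcripts. The deposited tables give an estimated count and a TPM for each of 88198 transcripts. For Kallisto's version, the release of the annotation and the strand setting, the sources used here give nothing. Of the transcripts, 86031 matched the GENCODE annotation (GRCm38), and those that did not held between 0.723% and 0.893% of a library's counts. Estimated counts and TPM were summed per gene over all transcripts, coding or not. The estimated counts were rounded to whole numbers and tested with edgeR 4.0.16 in R 4.3.3, using TMM scaling, the filterByExpr filter and quasi-likelihood F-tests, with Benjamini-Hochberg adjustment over all genes tested. A fitted log2 fold change rests on TMM-scaled counts and need not equal the ratio of TPM. C2C12 comparisons were fitted over the 21 C2C12 libraries, primary comparisons over the 9 primary libraries, and cell types over all 30. The test of replicate number asked whether any of the 3 numbers differed, with day in the model. The study's methods used the program Sleuth, which needs resampled estimates of each library. The deposited tables lack these, so edgeR was used in its place. The fit was tested on simulated data. Python 3.11.15, pandas 2.3.3 and matplotlib 3.10.9 made the tables and plots.

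In primary cells, libraries with the same replicate number deviated together from their group means (9 pairs, correlation 0.174 to 0.742), and for 8 of 9 libraries the closest other library bore the same number, so the number was treated as a pairing. The correlations are across genes, which are not independent replicates. Where the labels do not say that libraries are separate mice or cultures, p-values measure the spread between these libraries alone.

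Values in every library are given for Hox genes with a mean of at least 5 TPM in some group or with a leading fold change in a comparison of cell types or of primary days, and other members by ranges and counts. Outside the family, list members with the smallest adjusted p and 4 limb factors were named. Meis2, Isl1, En1, Ezh2, Aldh1a2 and the genes beside the clusters were picked with their values in view. Results on 1 Hox gene and 1 cofactor gene are not reported here. The members and lists were chosen with earlier results of these data known. The alternatives were RLE scaling, no filter, DESeq2 1.42.0, coding transcripts only, the compared groups only, a replicate block and leaving out each library. RefSeq promoter windows (GRCm38.p6) came from a reference table.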

Additional observations from a re-analysis of the deposited data

Results flagged for a closer look

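For 5 Hox genes the change with differentiation on patterned gelatin differed between the cell types by edgeR's interaction test with Benjamini-Hochberg adjustment, each value being the primary change minus the C2C12 change on the log2 scale. At D4 the difference was 0.67 for Hoxa9 (SE 0.22, adjusted p = 0.0292) and -1.01 for Hoxc13 (SE 0.27, adjusted p = 0.00946). At D7 it was 0.90 for Hoxa5 (SE 0.28, adjusted p = 0.0159), 0.76 for Hoxc10 (SE 0.27, adjusted p = 0.0306), -1.01 for Hoxc13 (SE 0.28, adjusted p = 0.00682) and -0.89 for Hoxc4 (SE 0.24, adjusted p = 0.00564). Hoxc13 is the one gene called at both days, and the D4 and D7 differences share their D0 libraries. No sample of these groups could be set apart by a test of single values, since each group has 3 libraries.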

How the results depend on the processing

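Counts of Hox genes called moved by over 1.5 times, or from 0, as follows, and the cause was not tested. DESeq2 gave 1 for patterned against unpatterned gelatin at D4, where it called 0.943% of all genes. It gave 5 and 8 for primary D4 and D7 (47.4% and 50.8% of all genes), and 4 for the D4 difference between cell types (23.2%). Fitting the compared groups alone gave 4 for patterned gelatin against plastic at D4 (17.2% of all genes) and 0 at D7 (0.151%). It gave 11 for unpatterned gelatin against plastic at D4 (23.4%) and 3 for primary D7 (44.3%). For cell types at D0 and D7 it gave 3 and 6 (54.0% and 33.5%), and for the D4 and D7 differences 1 and 1 (17.6% and 19.8%). No filter gave 3 for patterned gelatin against plastic at D7 and 3 for primary D7, and coding transcripts alone gave 3 for the former. The shares of all genes in these fits, and in those without a single library, are not given here. Shifts of the Hox counts there cannot be read as particular to Hox genes. The replicate block gave 11 and 14 for primary D4 and D7 (57.7% and 60.6% of all genes). In C2C12, where same-numbered libraries correlated between -0.176 and 0.211 (median 0.01, 63 pairs) and 6 of 21 were closest to their own number, the block gave 13, 11, 12 and 15 for the changes with time and changed no count by over 1.5 times.

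Leaving out one library, or one replicate number at every day, gave 8 to 12 for plastic D4 (8 without D4 plastic replicate 3), 9 to 13 for plastic D7, 12 to 13 for patterned D4 and 14 to 15 for patterned D7. The ranges were 0 to 0 for patterned against unpatterned gelatin at D4 and at D7 and for patterned gelatin against plastic at D4, 0 to 5 for patterned gelatin against plastic at D7, and 0 to 6 and 0 to 3 for unpatterned gelatin against plastic at D4 and D7. Primary D4 gave 0 to 10, primary D7 0 to 9 and D7 against D4 0 to 0. Cell types gave 5 to 10 at D0, 9 to 13 at D4 and 8 to 17 at D7, and the differences of changes 1 to 7 at D4 and 4 to 8 at D7. The replicate number gave 0 to 11, with 2 without day 4, 3 without day 7 and 0 without replicate 3. Leaving out a primary replicate number at every day was added after the data were seen. Of the alternative values for single named genes, 1316 kept their call, 256 lost it and 0 changed direction.

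Depth limits the Hoxb and Hoxd genes, where a library of 13.1 M counts holds few reads. The gelatin comparisons with D0 mix day and substrate, and 3 libraries a group limit the precision.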
